A study of Mus musculus with 12 samples.

Results

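Injured and sham-operated mouse spinal cord were compared in RNA bound to polysomes. This comparison used 6 of the 12 arrays of the series, chosen by their sample labels: 3 polysome arrays from injured cord and 3 from sham cord, which the sample titles call naive while the treatment notes describe a laminectomy. The other 6 arrays hold total RNA from the same 2 kinds of cord and served for comparison. All mice were wild-type C57BL/6 females aged 10 weeks, and no transgene or drug is named for any group. Injured mice had a laminectomy and an 80% transection, and sham mice had the laminectomy only. In both, 2.5 cm of cord around the site was removed after 9 hours. The samples are labelled biological replicates, and whether a sample pools several animals is not given in the sources used here. The p-values measure the spread between samples within groups, pooled over all 12 arrays. The homogenates contained all cells of the segment, so neurons, glia, vessels, meninges and any infiltrating cells were measured together.

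A polysome is an mRNA that carries several ribosomes at once, and a sucrose gradient separates it from free mRNA by its weight. The amount of a transcript in polysomes reflects both how much of it the tissue holds and what share of it is loaded with ribosomes. After spinal cord injury, glial cells and the vessel wall respond within hours: acute-phase and cytokine pathways are switched on, circulating glucocorticoids rise with the stress of surgery and trauma, and myelinating oligodendrocytes at the lesion are damaged.

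Transcripts that mark the cord were well measured. On polysomes, 23 of 24 neuronal, 25 of 25 astrocyte, 13 of 13 myelin and 16 of 16 other oligodendrocyte markers that were tested exceeded every probe set for absent organisms (the absent controls, a measure of background) on all arrays of at least 1 group. Only 5 of 9 skeletal muscle and 2 of 5 lymphocyte markers did so. No muscle or lymphocyte marker was called on the deposited scale (3 muscle markers were lower after quantile normalization of the 6 polysome arrays, and 6 muscle and 5 lymphocyte markers were higher after centring on hybridization controls, a scaling described below), and the log2 of the summed muscle signal lay at 9.65 to 9.83 on sham and 9.54 to 9.61 on injured arrays. For lymphocytes it was 8.94 to 9.00 and 8.89 to 8.96, with Cd79a and Cd8a at background on all 6 arrays. Polysome arrays of a group correlated across genes at 0.993 to 0.998.

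RNA from injured cord differed in the balance between transcript ends. Gapdh has control probe sets at both ends, and the 3′ value exceeded the 5′ value by 0.90, 0.88 and 0.84 (log2) on the sham polysome arrays and by 2.90, 2.54 and 3.06 on the injured ones, with no overlap. The 5′ value fell from a mean of 12.71 to 10.72 while the 3′ value was 13.58 and 13.55. For Actb the 5′ means were 12.04 and 10.59. The Pcx and Tfrc controls carry no such information here, since on polysome arrays the Pcx 5′ end (means of 6.55 and 6.5) and both Tfrc ends (5.75 to 5.93) lay near or below the highest absent control (6.46 and 6.44). With injury the 3′ minus 5′ value of Gapdh shifted by 1.96 on polysomes and 1.17 in total RNA. For Actb the shifts were 1.58 and 0.34. Probe sets lie at different distances from the 3′ end, and the part of this end difference in any gene's change was not tested. Nor was its part in differences between polysomes and total RNA.

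**Figure D1:**
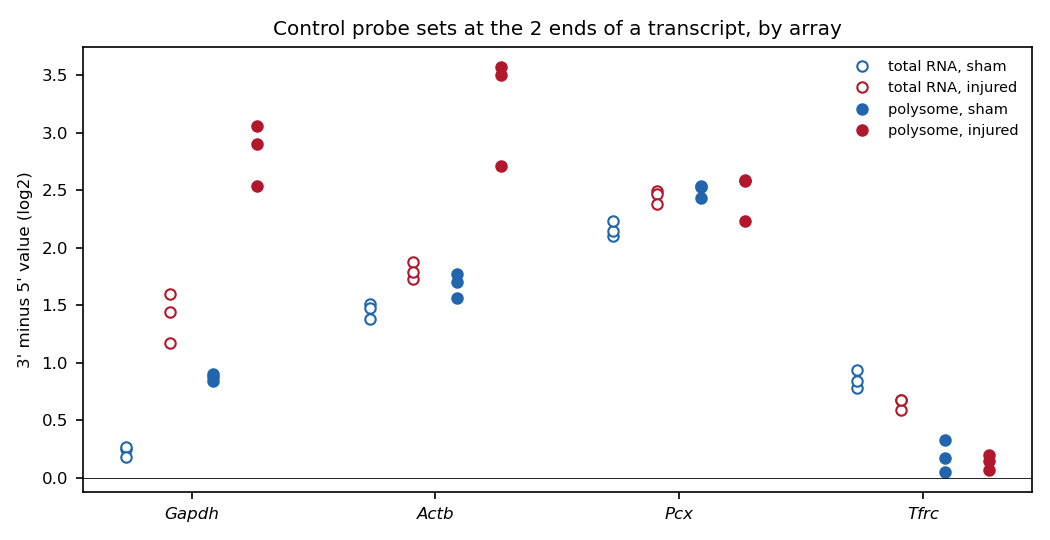
3′ minus 5′ value (log2) of the Gapdh, Actb, Pcx and Tfrc control probe sets on each array of the 4 groups; each point is 1 array. For Gapdh the 3 injured polysome arrays lie between 2.54 and 3.06 and the sham ones between 0.84 and 0.90; the Pcx 5′ end and both Tfrc ends read near or below the absent controls on polysome arrays.

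Of 10371 genes tested, 4053 (39.1%) differed between injured and sham polysomes at a limma adjusted p under 0.05. On the deposited log2 scale 1426 (13.7%) were higher and 2627 (25.3%) were lower after injury. With the spread taken from the 6 polysome arrays alone, 2997 genes were called. For 4803 genes (46.3%) the 3 injured arrays lay wholly above or wholly below the 3 sham arrays. Most differences were small: the middle of the distribution ran from -0.19 to 0.08 (quartiles), with a median of -0.04. Only 70 genes (0.675%) were both called and changed at least 2-fold, 42 of them higher (0.405%) and 28 lower (0.27%).

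The split between higher and lower genes depended on how the arrays were scaled. After quantile normalization of the 6 polysome arrays 3467 genes were called (33.4%): 1891 (18.2%) were higher and 1576 (15.2%) lower, and the median change was 0.02. With each array centred on its median 4351 were called (42.0%): 2487 (24.0%) were higher and 1864 (18.0%) lower. A further scaling used the hybridization controls, labelled bacterial and phage RNAs that are added to each sample before hybridization. These controls read 0.43 lower on injured than on sham polysome arrays, so centring on them moved every gene up by 0.43. On that scale 8243 genes were called (79.5%): 8041 (77.5%) were higher and 202 (1.95%) lower. In that fit limma drew each gene's spread almost wholly from all genes together (83000 total degrees of freedom, against 14.1 for deposited values). Its counts of calls, here and in the lists below, are therefore not directly comparable with those of the other scalings. The controls did not shift by 1 amount: bioB differed by -0.69 and cre by -0.23. Which scale is nearer to the amount of RNA was not tested. All values below are on the deposited scale, and falls smaller than that shift become rises on the control-based one. The 4 scalings called 1577 genes alike (15.2%), 1375 of them higher and 202 lower, and these include all 42 rises and all 28 falls of at least 2-fold. Probe sets of 1 gene often disagreed: of 737 genes called higher that had a further tested probe set, 265 (36.0%) had another called higher and 131 (17.8%) another called lower. Of 1022 such genes called lower, 659 (64.5%) had another called lower and 19 (1.86%) another called higher.

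**Figure D2:**
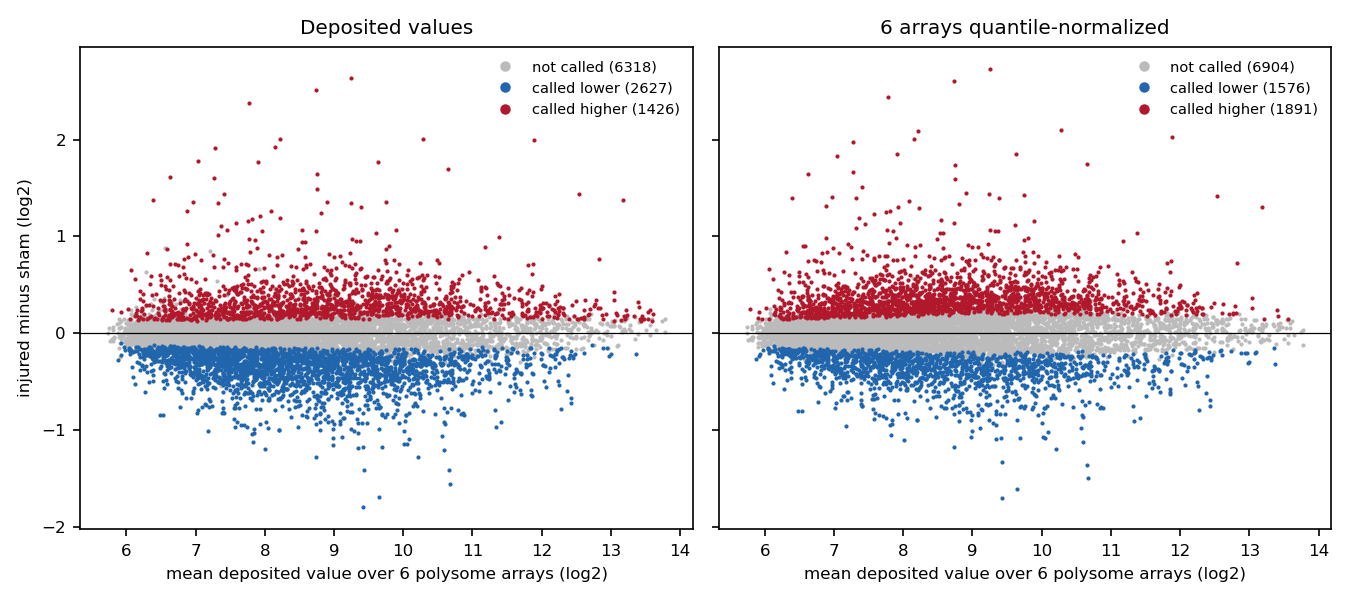
Injured minus sham change on polysomes (log2) against the mean level of each of 10371 genes, with deposited values on the left and after quantile normalization of the 6 polysome arrays on the right; red genes were called higher, blue lower and grey not called. On the left 1426 genes are red and 2627 blue, on the right 1891 and 1576, and the widest changes keep their side; centring on hybridization controls would lift every gene on the left by 0.43.

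The 20 largest rises are described by the kind of gene, not in order of size. Cebpd, a transcription factor of the acute-phase response, read 8.26, 7.81 and 7.71 (log2) on sham and 10.43, 10.85 and 10.43 on injured arrays. Plin4, which coats lipid droplets, read 7.45, 7.43 and 7.57 on sham and 9.85, 10.37 and 9.74 on injured arrays. For both genes every injured array lay more than 2 log2 units above every sham array. The change was 2.64 for Cebpd (SE 0.15, limma adjusted p = 4.1e-08) and 2.51 for Plin4 (SE 0.15, adjusted p = 6.7e-08), although another probe set of Cebpd changed by 0.47.

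Sult1a1, a sulfotransferase, and Cdkn1a, which encodes the cell cycle inhibitor p21, rose too. Sult1a1 went from 7.16, 7.08 and 7.38 to 9.24, 9.11 and 9.29, a 4.03-fold rise (adjusted p = 1.4e-08). Cdkn1a went from 9.31, 9.20 and 9.32 to 11.11, 11.52 and 11.24, a 4.04-fold rise (adjusted p = 2.9e-08). Sgk1 and Sgk3, kinases that regulate ion transport and survival, changed by 1.70 (SE 0.23) and 1.64 (SE 0.21). The groups did not overlap for any of these 4 genes. Sgk1 varied most within a group: its sham arrays read 10.11, 9.90 and 9.40 and its injured arrays 11.72, 11.11 and 11.68.

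Glucocorticoid-induced genes rose nearly without exception. Of 21 measured, 19 were called higher, 0 lower, with a median change of 0.85 against -0.04 over all genes, and in total RNA all 21 were higher. Among all genes 13.7% were called higher on polysomes and 25.3% lower, shares to be set beside all counts below. The list was chosen with earlier results of these data known, which may have favoured such counts. Cebpd, Plin4, Cdkn1a and Sult1a1 belong to the list, but Cdkn1a is also listed as a p53 target and Cebpd among C/EBP and regeneration-associated genes. Klf9, a transcription factor, rose by 0.77 (SE 0.05), and Per1, a component of the circadian clock, by 0.81 (SE 0.07). Nfkbia, the inhibitor of NF-kB, rose by 0.99 (SE 0.11). Of 5 other probe sets of Klf9, 3 were called higher and 0 lower.

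IL-6 family cytokines act through gp130 receptors and JAK kinases on the transcription factor STAT3, and SOCS3 blocks the pathway in return. Socs3 read 6.81, 6.40 and 6.56 on sham and 8.65, 9.48 and 8.76 on injured arrays. The groups were far apart, 1 sham array lay within the range of the absent controls, and the rise was 2.38 (SE 0.21, limma adjusted p = 2.5e-06); its further probe sets read 1.40 and 2.19. Osmr, the receptor subunit for oncostatin M, rose by 1.35 (SE 0.14), Stat3 by 1.07 (SE 0.07) and Cebpb, an acute-phase transcription factor, by 1.35 (SE 0.14). Other probe sets of Stat3 changed by 0.19 and 1.07, and that of Osmr by 0.09. In the whole IL-6 family list 10 of 22 measured genes were higher and 3 lower (20 and 0 on the control-based scale), with a median of 0.28; none was lower after quantile normalization.

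Acute-phase genes also rose. Serpina3n, a serine protease inhibitor secreted by reactive astrocytes, read 8.85, 8.58 and 8.81 on sham and 10.38, 10.79 and 10.38 on injured arrays. The groups stood apart by over 1 log2 unit, a rise of 1.77 (SE 0.12, limma adjusted p = 2.0e-07). Saa3, a serum amyloid A protein, rose by 1.77 (SE 0.21) and Ptx3, a secreted pattern-recognition protein, by 1.91 (SE 0.17), with Ptx3 above the absent controls on 1 of 3 sham arrays. Saa1 and Fga, the fibrinogen alpha chain, were at background on all sham arrays and rose at least 2.76-fold and at least 1.53-fold. These bounds set the injured mean against the background reading of the sham arrays. Saa1 and Saa3 are close relatives, and cross-hybridization between them was not tested. Of 15 acute-phase genes, 11 were higher and 0 lower, with a median of 0.60. With genes restricted to those above the array median on at least 3 arrays, 7 were called higher.

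The metallothioneins Mt1 and Mt2, small zinc-binding proteins, were already among the brightest transcripts. Mt2 read 11.79, 11.79 and 11.87 on sham and 13.08, 13.27 and 13.41 on injured arrays, a 2.71-fold rise with no overlap (SE 0.07 log2, limma adjusted p = 2.5e-08). Mt1 rose by 1.37 (SE 0.09), but its other probe set gave 0.07 and was not called. Hspb1, a small heat shock protein, read 10.86, 10.87 and 10.94 on sham and 12.66, 13.04 and 12.96 on injured arrays. That 3.99-fold rise (adjusted p = 2.9e-08) stood apart in its list: only 3 of 20 heat shock genes were higher and 3 lower (17 and 0 on the control-based scale), with a median of 0.06. Without injured replicate 2, 5 were higher. The higher share of heat shock genes is near the 13.7% of all genes, and the lower share is below their 25.3%.

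Further large rises concern the matrix and chemokines. Tgm2, a transglutaminase that crosslinks proteins, rose by 1.49 (SE 0.28), and Ccn1, a matrix-associated immediate early protein, by 1.44 (SE 0.10). Tfpi2, a serine protease inhibitor of the matrix, was at background on sham arrays (5.80, 5.83 and 5.82) and read 6.90, 8.39 and 7.0 on injured ones, at least 1.95-fold higher. Replicate 2 was the highest injured array for both Tgm2 and Tfpi2. Ccl12, a monocyte-attracting chemokine, rose by 1.6 (SE 0.28) and exceeded the absent controls on 1 of 3 sham arrays.

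**Figure D3:**
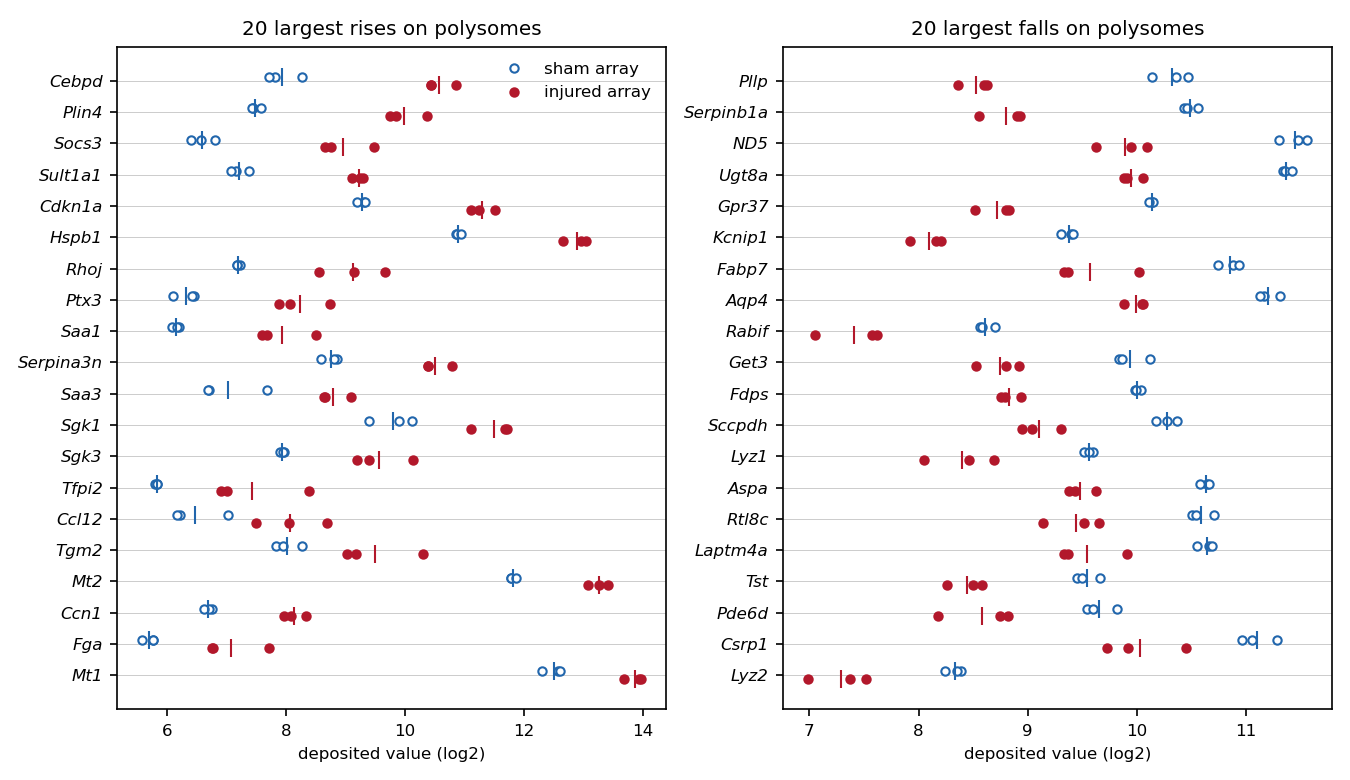
Deposited values (log2) on the 3 sham (open) and 3 injured (filled) polysome arrays for the 20 largest rises on the left and the 20 largest falls on the right; vertical ticks are group means. By the rule that chose them the groups do not overlap for any gene; Hspb1 and Mt2 are among the brightest, and Tfpi2, Saa1 and Fga start at background.

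Promoters of the 20 largest rises were read for 9 motifs, since these genes moved together. The sequences are RefSeq windows of 300 bases on GRCm38.p6, from 250 bases before to 50 after a transcription start, and 17 of the 20 genes had one. Each motif was searched on both strands with its variable positions left free, and overlaps between motifs were allowed. The glucocorticoid response element was found for 3 of 17 genes (Mt1, Serpina3n and Sgk1), against 0.537% of all genes with a window. Within the whole glucocorticoid-induced list, 1 of 17 genes with a window held it, namely Sgk1 in 1 of its 6 windows. The STAT motif TTCNNNGAA was found for 3 of 17 (Fga, Sgk1 and Socs3) against 9.55%, and the C/EBP motif TTGCNNAA for 6 of 17 (Fga, Mt2, Ptx3, Saa1, Saa3 and Sgk1) against 12.2%.

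Shares for the other 6 motifs were closer to those of all genes or rested on few genes. The metal response core TGCNCNC was found for 12 of 17 genes, and 53.6% of all genes hold it. The TATA box TATAAA was found for 3 (Ccl12, Ccn1 and Sgk1) against 15.7%, the NF-kB motif for 1 (Serpina3n) against 1.89%, and the serum response element for 1 against 0.581%. The cAMP response element TGACGTCA (2.03% of genes) and the heat shock element (0.662%) were found for 0 of 17. These windows hold only the sequence next to a start, the motifs are short patterns, and a match is not evidence of binding.

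The promoters below were chosen after the search because they hold a glucocorticoid or STAT match, which stands in capitals; each is written 5′ to 3′ on the gene's strand. Socs3 lies on the minus strand at chr11:117969317-117969616, with the STAT match 154 to 146 bases before the start. Mt1 lies on the plus strand at chr8:94178839-94179138, with the glucocorticoid match 94 to 82 bases before the start. Serpina3n lies on the plus strand at chr12:104406458-104406757 (match 78 to 66 before the start) and the Sgk1 window on the plus strand at chr10:21993640-21993939 (match 188 to 176 before the start).
Socs3: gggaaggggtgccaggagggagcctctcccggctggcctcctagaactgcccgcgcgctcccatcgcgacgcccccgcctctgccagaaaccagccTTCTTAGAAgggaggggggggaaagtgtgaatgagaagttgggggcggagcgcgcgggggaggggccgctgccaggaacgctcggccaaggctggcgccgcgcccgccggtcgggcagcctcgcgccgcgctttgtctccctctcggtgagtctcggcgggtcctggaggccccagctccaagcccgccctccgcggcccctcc
Mt1: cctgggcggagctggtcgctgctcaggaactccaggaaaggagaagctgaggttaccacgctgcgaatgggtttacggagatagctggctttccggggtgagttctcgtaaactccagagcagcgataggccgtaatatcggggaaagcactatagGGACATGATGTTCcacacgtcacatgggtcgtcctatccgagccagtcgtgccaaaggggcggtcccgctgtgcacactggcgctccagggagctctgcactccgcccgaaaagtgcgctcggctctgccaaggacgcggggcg
Serpina3n: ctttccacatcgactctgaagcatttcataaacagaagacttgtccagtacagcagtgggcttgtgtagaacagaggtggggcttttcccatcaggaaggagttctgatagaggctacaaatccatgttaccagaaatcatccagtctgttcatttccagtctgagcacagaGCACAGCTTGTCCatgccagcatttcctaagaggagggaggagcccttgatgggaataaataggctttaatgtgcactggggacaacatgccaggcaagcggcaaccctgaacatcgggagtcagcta
Sgk1: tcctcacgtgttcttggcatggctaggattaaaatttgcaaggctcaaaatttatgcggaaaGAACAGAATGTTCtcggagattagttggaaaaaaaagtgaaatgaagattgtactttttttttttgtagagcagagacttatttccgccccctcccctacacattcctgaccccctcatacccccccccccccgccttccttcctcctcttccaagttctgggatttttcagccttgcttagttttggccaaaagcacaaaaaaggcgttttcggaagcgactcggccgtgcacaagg

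Reactive astrocyte genes rose as a group. Of 23 measured, 19 were higher and 0 lower, with a median of 0.68. Lists share members: Serpina3n, Ptx3, Osmr and Hspb1, described above, belong to this list, and Cd14 counts here and among monocyte and neutrophil genes. Vim, an intermediate filament of reactive glia, read 9.44, 9.28 and 9.62 on sham and 9.88, 10.29 and 10.08 on injured arrays, a rise of 0.64 (SE 0.12) with no overlap. Gbp2, an interferon-inducible GTPase, rose by 0.82 (SE 0.14). Gfap, the filament that defines astrocytes, depended on the probe set: the brighter one gave 0.41 (SE 0.06) and the other -0.43.

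Immediate early genes had also moved. Of 29 measured, 18 were higher and 1 lower (28 and 0 on the control-based scale), with a median of 0.39. Junb, a subunit of the AP-1 transcription factor, read 7.19, 7.17 and 7.17 on sham and 8.09, 8.89 and 8.02 on injured arrays, a rise of 1.16 (SE 0.15). The exception was Arc, a regulator of synaptic strength, at -0.54. Hk2, a glycolytic enzyme, rose by 1.14 (SE 0.09), and Hmox1, which degrades haem, rose by 1.21 (SE 0.08).

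More monocyte and neutrophil markers were higher than lower, and whether their signal came from blood-derived or resident cells was not tested. Of 21 monocyte and neutrophil genes, 12 were higher and 1, Lyz2, was lower, with a median of 0.36; the log2 of their summed signal was 11.63 to 11.78 on sham and 11.94 to 12.76 on injured arrays. Mmp8 and Cxcr2 were at background on all 6 arrays. S100a8, an abundant neutrophil protein, read 8.94, 8.86 and 8.52 on sham and 9.15, 10.27 and 9.80 on injured arrays. Its rise of 0.97 (SE 0.25, limma adjusted p = 0.0077) came with a wide spread among the injured arrays, of which replicate 2 was the highest. Cd14, a lipopolysaccharide co-receptor, rose by 0.97 (SE 0.14), and Msr1, a macrophage scavenger receptor at background on sham arrays, rose at least 1.47-fold, while other probe sets of it gave 0.35 and -0.03. In bulk tissue more cells of a type and more RNA per cell cannot be told apart, and the part of these cells in the cytokine and acute-phase rises was not tested.

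Cytokines and chemokines gave 12 of 27 higher and 2 lower (25 and 0 on the control-based scale), with a median of 0.28. Only 17 of the 27 exceeded background, and with genes restricted to those above the array median on at least 3 arrays 5 were called higher. Ccl9, a chemokine, rose by 1.06 (SE 0.17), while another probe set of it gave 0.24. Cxcl2, which attracts neutrophils, was at background on sham arrays and at least 1.2-fold higher after injury.

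Growth and stress programmes shifted more mildly. Of 29 regeneration-associated genes, 15 were higher and 4 lower (24 and 0 on the control-based scale), with a median of 0.18, and the lower count was 1 or 2 without any sham array or injured replicate 1; Tubb6, a tubulin, rose by 0.84 (SE 0.12). Of 22 ribosome biogenesis genes, 13 were higher and 1 lower (21 and 0 on the control-based scale), among them Utp20, a factor of the small subunit, at 0.55 (SE 0.07). Of 21 genes of the integrated stress response, 9 were higher and 0 lower, with a median of 0.17.

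The largest falls came from several kinds of gene. Pllp, a myelin membrane protein, read 10.36, 10.47 and 10.14 on sham and 8.36, 8.60 and 8.63 on injured arrays. Ugt8a, the enzyme that makes the myelin lipid galactosylceramide, read 11.34, 11.36 and 11.42 on sham and 9.91, 10.06 and 9.88 on injured arrays. In both, all injured arrays lay more than 1 log2 unit below all sham arrays, with falls of 3.47-fold (adjusted p = 2.5e-08) and 2.68-fold (adjusted p = 2.2e-08). With centring on hybridization controls the changes were -1.36 for Pllp and -0.99 for Ugt8a. Serpinb1a, an inhibitor of neutrophil proteases and the second largest fall, went from 10.43, 10.46 and 10.56 to 8.93, 8.55 and 8.90, a change of -1.69 (SE 0.09); another probe set gave -0.79.

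Gpr37, an oligodendrocyte receptor, and Aspa, which cleaves N-acetylaspartate, fell too. Gpr37 went from 10.14, 10.15 and 10.11 to 8.52, 8.80 and 8.83, a change of -1.42 (SE 0.08). Aspa went from 10.64, 10.66 and 10.58 to 9.43, 9.38 and 9.63, a change of -1.15 (SE 0.08). The 3 sham arrays of either gene were within 0.1 of each other. Of 16 oligodendrocyte genes outside the myelin sheath, 11 were lower and 1 higher, with a median of -0.49, the lowest of the 30 plotted lists; on the control-based scale 7 were lower and 5 higher.

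Enzymes of myelin lipids gave 12 of 16 lower and 0 higher on the deposited scale, with a median of -0.34, and 4 lower and 4 higher on the control-based scale. Cers2, which makes very-long-chain ceramides, changed by -0.83 (SE 0.07), and Fa2h, the fatty acid hydroxylase of myelin lipids, by -0.61 (SE 0.05). Among the proteins of compact myelin and its surface, 5 of 13 were lower and 1 higher (3 and 7 on the control-based scale). Of all genes 25.3% were called lower. Mal, a membrane protein of myelin vesicles, changed by -0.92 (SE 0.11), Tspan2 by -0.91 (SE 0.12) and Mog, a surface protein of the sheath, by -0.75 (SE 0.09). When the probe sets of a gene were averaged, 8 of the 13 were lower.

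Sterol synthesis, on which myelin depends, fell with them. Fdps, farnesyl diphosphate synthase, read 10.04, 9.98 and 9.99 on sham and 8.79, 8.94 and 8.76 on injured arrays, a change of -1.18 (SE 0.06, limma adjusted p = 2.9e-08). Nsdhl, an enzyme of late cholesterol synthesis, changed by -0.92 (SE 0.07). Of 24 sterol and fatty acid synthesis genes, 12 were lower and 1 higher, with a median of -0.25; on the control-based scale 4 were lower and 11 higher.

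Astrocyte genes went both ways. Aqp4, the water channel of astrocyte endfeet, read 11.17, 11.13 and 11.31 on sham and 9.88, 10.06 and 10.05 on injured arrays. That 2.31-fold fall (adjusted p = 2.9e-08) was matched by its other probe set at -1.27. Fabp7, a fatty acid binding protein of astrocytes, changed by -1.28 (SE 0.16) and Cldn10, a claudin, by -0.98 (SE 0.08). Of 25 genes of astrocyte homeostasis, 12 were lower and 6 higher, with a median of -0.15 (4 lower and 14 higher on the control-based scale).

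Resting microglia markers were lower in 10 of 13 and higher in 0, with a median of -0.32, and on the control-based scale 2 were lower and 3 higher. P2ry12, the purinergic receptor of resting microglia, read 6.72, 6.94 and 7.06 on sham arrays and was at background on all injured ones, at least 1.38-fold lower. Igf1, a growth factor, changed by -0.94 (SE 0.11). The lysozyme probe sets fell as well: Lyz2 read 8.39, 8.24 and 8.35 on sham and 6.99, 7.52 and 7.37 on injured arrays (-1.04, SE 0.12), and Lyz1 changed by -1.16 (SE 0.13). Both genes are near copies, and their signals may not be separable.

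Interferon and MHC genes were higher in 10 of 26 and lower in 5, with a median of 0.18 (20 and 1 on the control-based scale; 2 lower after quantile normalization and 3 without injured replicate 3). B2m, the light chain of MHC class I, read 10.51, 10.47 and 10.54 on sham and 9.08, 9.71 and 9.70 on injured arrays, a change of -1.01 (SE 0.13), and another probe set gave -1.30. Among genes of the secretory route, of 26 genes for ER translocation and folding, 11 were lower and 2 higher (2 and 14 on the control-based scale). Of all genes 13.7% were called higher and 25.3% lower, and the lower share of interferon and MHC genes is below the latter. Ssr4, a subunit of the translocon-associated complex, changed by -0.99 (SE 0.15), while its other probe sets gave 0.06 and 0.00. Pdia3, a protein disulfide isomerase, changed by -0.71 (SE 0.08).

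ND5, a subunit of respiratory complex I encoded in the mitochondrial genome, read 11.30, 11.48 and 11.56 on sham and 9.95, 9.63 and 10.09 on injured arrays. This was the third largest fall, at -1.56 (SE 0.10, limma adjusted p = 1.2e-07). Of 71 mitochondrial ribosomal proteins, 31 were lower and 6 higher, with a median of -0.20. The lower count was 14 after quantile normalization, 19 without sham replicate 2, and 1 on the control-based scale, where 36 were higher. The higher count was 3 without sham replicate 1 or injured replicate 3 and 10 without injured replicate 1. Of 83 respiratory chain genes, 24 were lower and 4 higher (1 and 62 on the control-based scale), a lower share near the 25.3% of all genes, with a median of -0.07, and 37 were lower without injured replicate 3. The higher count was 13 without injured replicate 1, 1 without sham replicate 1, and 2 without sham replicate 3 or injured replicate 2.

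Single neuronal transcripts fell, while the ion channel and general neuronal lists lay near all genes. Kcnip1, a subunit of A-type potassium channels, read 9.40, 9.42 and 9.31 on sham and 7.92, 8.16 and 8.21 on injured arrays, a change of -1.28 (SE 0.07). Its other probe sets gave -1.15, -0.07 and -0.02. Kcnip4, a relative, changed by -1.03 (SE 0.07) and Slc18a3, the vesicular acetylcholine transporter of motor neurons, by -0.92 (SE 0.10). Of 75 ion channel genes, 22 were lower and 1 higher with a median of -0.07 against -0.04 over all genes (2 and 59 on the control-based scale). Of 15 neuropeptide genes, 8 were lower and 2 higher with a median of -0.24 (1 and 7 on the control-based scale; 5 lower after quantile normalization). Of 24 general neuronal markers, 7 were lower and 5 higher (1 and 18 on the control-based scale). These lower shares of ion channel and general neuronal genes are near the 25.3% of all genes called lower. The lower count of general markers was 4 without any 1 of the sham arrays or without injured replicate 1, and the higher count was 3 without sham replicate 1 or 2.

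Vessel genes differed by list. Among endothelial and blood-brain barrier genes, 7 of 21 were lower and 0 higher, and among pericyte and meningeal genes 7 of 18 were lower and 0 higher, or 4 without sham replicate 3. The medians of the 2 lists were -0.07 and -0.15, against -0.04 over all genes, of which 25.3% were called lower. On the control-based scale the same lists gave 1 lower and 14 higher, and 3 lower and 10 higher. By contrast, 4 of 14 genes of endothelial activation were higher and 2 lower, with a median of 0.24 (12 and 0 on the control-based scale; 8 and 1 after quantile normalization). Bsg, an endothelial surface glycoprotein, changed by -0.83 (SE 0.10), and Col1a1, a fibrillar collagen chain, by -0.83 (SE 0.08). Another probe set of Col1a1 gave -0.23.

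The translation machinery itself did not move one way. Of 52 translation factors, 13 were higher and 11 lower, with a median of 0.02 (41 and 2 on the control-based scale). Pabpc1, the main cytoplasmic poly(A)-binding protein, rose by 0.59 (SE 0.08), while another probe set gave 0.12. Eif3m, a subunit of initiation factor eIF3, changed by -0.76 (SE 0.07), and Gspt1, the release factor eRF3a, by -0.63 (SE 0.06). Of 44 cytosolic ribosomal proteins, 6 were higher and 7 lower (39 and 0 on the control-based scale). The higher count was 3 without sham replicate 3 and 14 without injured replicate 1, and the lower count was 4 without sham replicate 2. Of 45 proteasome genes, 10 were higher and 13 lower (36 and 2 on the control-based scale), with 5 lower after quantile normalization and 8 without sham replicate 3. The median of the ribosomal proteins was 0.02 and of the proteasome genes -0.06, against -0.04 over all genes. Of all genes 13.7% were called higher and 25.3% lower. The higher share of ribosomal proteins and the lower share of proteasome genes lie near these.

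**Figure D4:**
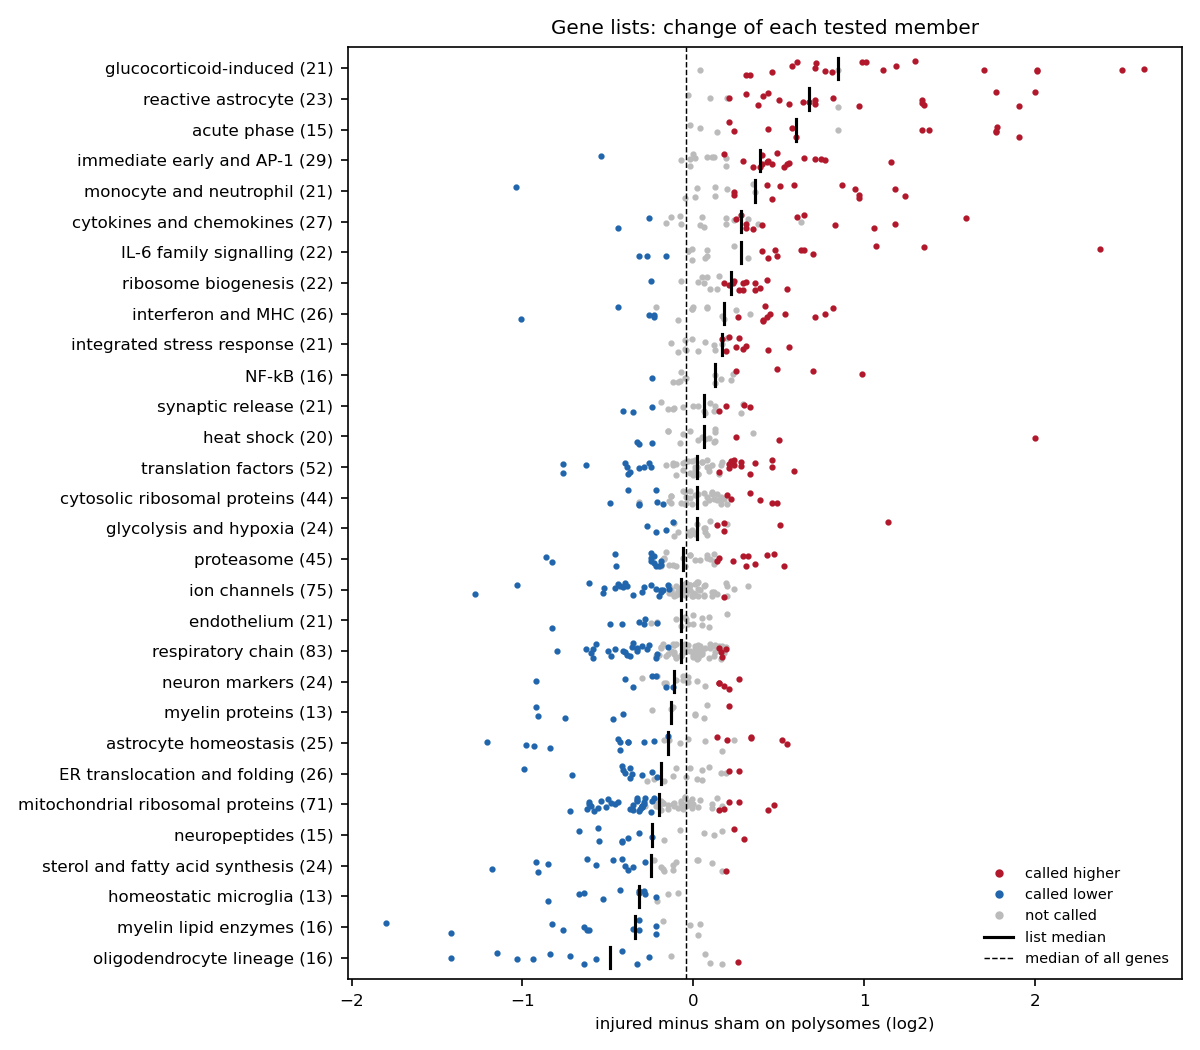
Injured minus sham change on polysomes (log2, deposited scale) of every tested member of 30 gene lists, ordered by median; red members were called higher, blue lower and grey not called, thick ticks are list medians, the dashed line is the median of all genes and the number tested stands in brackets. Glucocorticoid-induced genes have the highest median (0.85) and oligodendrocyte lineage genes the lowest (-0.49); centring on hybridization controls would move every point right by 0.43 and turn the sign of the medians above -0.43 that are negative here.

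Against total RNA on the deposited scale, the rises on polysomes mostly had a counterpart and the falls mostly did not. Total RNA arrays came from aliquots of the homogenates that supplied the polysomes, so both changes share their animals, though no arrays. In total RNA 6242 genes were called (60.2%), 4369 higher (42.1%) and 1873 lower (18.1%). The median change over all genes was 0.12 in total RNA and -0.04 on polysomes, which favours counterparts for rises over counterparts for falls. Shared calls were counted on the deposited scale only. Of the 1426 genes higher on polysomes, 1035 (72.6%, and 23.7% of those higher in total RNA) were higher in total RNA and 84 were lower. Of the 2627 genes lower on polysomes, 402 (15.3%, and 21.5% of those lower in total RNA) were lower in total RNA and 901 (34.3%) were higher.

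The difference between the polysome and total RNA changes (the interaction) was tested for each gene. It was called for 5208 genes (50.2%): in 1136 (11.0%) the change on polysomes lay above that in total RNA and in 4072 (39.3%) below it. With arrays centred on their median these counts were 1838 and 3186, after quantile normalization of the 12 arrays 1664 and 1877, and with centring on hybridization controls 199 and 4435. Of the 42 rises of at least 2-fold, all were higher in total RNA, and in 16 the polysome rise was the smaller one. Of the 28 falls of at least 2-fold, 10 were lower and 2 higher in total RNA, and in 26 the polysome change lay below that in total RNA. Falls were picked by their polysome change, which the interaction contains, so the choice itself favoured a value below 0. The end difference of Gapdh and Actb also grew more on polysomes than in total RNA, and its part in the interactions was not tested.

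Individual rises show both patterns. Cebpd rose by 2.64 on polysomes and 2.60 in total RNA (interaction adjusted p = 0.87), and Cdkn1a by 2.01 and 1.83 (adjusted p = 0.32). Socs3 rose by 2.38 on polysomes against 3.68 in total RNA, an interaction of -1.30 (adjusted p = 0.0026). Serpina3n rose by 1.77 against 2.97 (interaction -1.21, adjusted p = 0.00012) and Hspb1 by 2.00 against 2.87 (interaction -0.87, adjusted p = 0.0005). Of the reactive astrocyte genes, 14 of 23 had a polysome change below that in total RNA and 0 above, against 7 and 1 of 21 glucocorticoid-induced genes. That contrast between the lists was not tested.

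Among the falls, total RNA ranged from lower to higher. Pllp changed by -1.80 on polysomes and -0.93 in total RNA (interaction -0.87, adjusted p = 0.00015). Aqp4 changed by -1.21 and -0.06 (interaction -1.15, adjusted p = 4.4e-06), Fdps by -1.18 and -0.04 (interaction -1.14, adjusted p = 3.9e-06) and ND5 by -1.56 and 0.06 (interaction -1.61, adjusted p = 8.2e-06). Kcnip1 fell on polysomes but was higher in total RNA, at -1.28 against 0.48 (interaction -1.77, adjusted p = 6.9e-07). The interaction was called below 0 for all of the 20 largest falls. Their choice by a low polysome change, which is part of the interaction, favoured this.

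**Figure D5:**
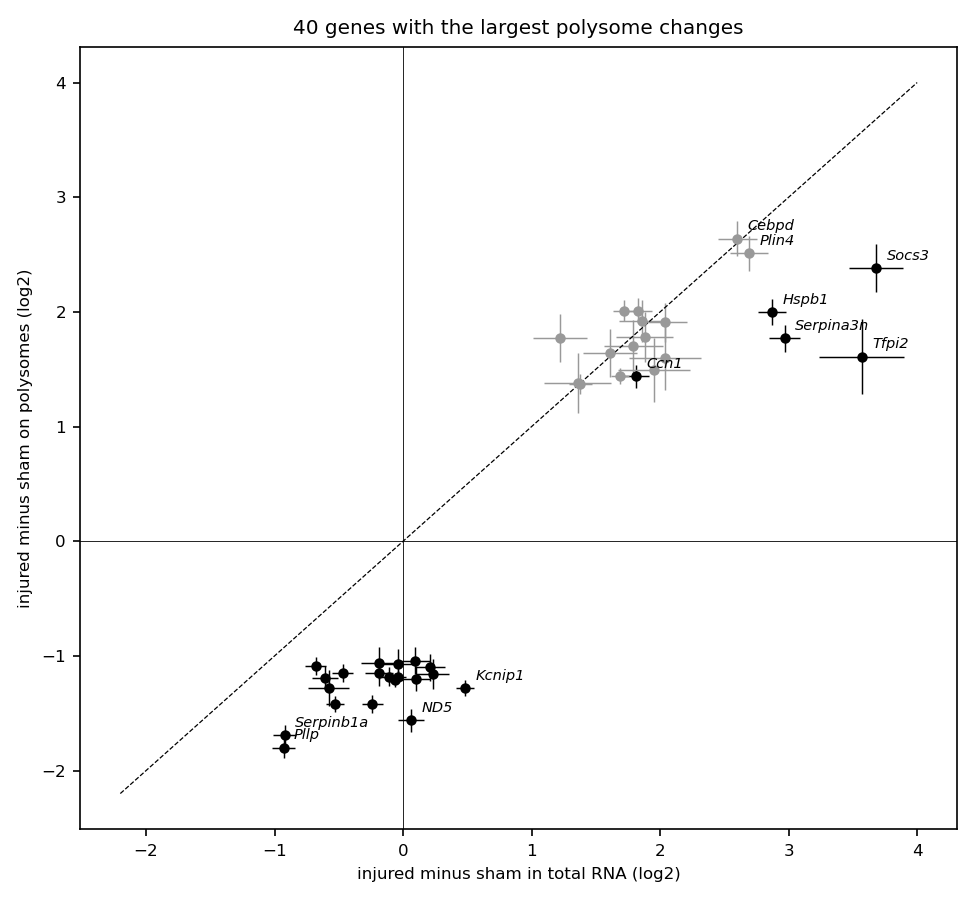
Injured minus sham change on polysomes against that in total RNA (log2) for the 20 largest rises and 20 largest falls on polysomes, with limma standard errors as bars; black genes have a called interaction, grey ones do not, and the dashed line marks equal changes. Socs3, Hspb1, Serpina3n and Tfpi2 lie below the line among the rises. All 20 falls lie below it, which their choice by a low polysome change favoured.

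The opposite pattern, more on polysomes and less in total RNA, was seen for Irs2, an adaptor of insulin and IGF receptors. On polysomes it read 8.90, 8.83 and 8.88 on sham and 9.39, 9.82 and 9.48 on injured arrays, a rise of 0.69 (SE 0.10). In total RNA it changed by -0.82, an interaction of 1.52. Both changes were called.

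Cpeb1, the RNA-binding protein named in the series title, which recognises cytoplasmic polyadenylation elements, read 9.07, 8.91 and 8.95 on sham and 8.63, 8.87 and 8.43 on injured polysome arrays. The groups did not overlap, but the change of -0.33 (SE 0.09) is smaller than the scaling shift and was 0.10 on the control-based scale. It was not called after quantile normalization of the 6 arrays (-0.24) or without sham replicate 1 (-0.29). Nor was it called with the replicate number as a fixed block in the 6 polysome arrays (-0.33). Its relatives Cpeb2 and Cpeb3 were called higher, at 0.24 (SE 0.07) and 0.39 (SE 0.11), though the groups overlapped for Cpeb3. Neither was called without sham replicate 2 or 3. Cpeb4, at 0.18 (SE 0.09), was not called, while its other probe set (0.22) was called higher. The polysome change of Cpeb3 lay 0.58 above that in total RNA (limma interaction adjusted p = 0.009). The interaction was not called for Cpeb2 or Cpeb4. In the broader list of cytoplasmic and nuclear polyadenylation factors 8 of 21 were higher and 4 lower (18 and 0 on the control-based scale), with a median of 0.17. The higher count was 5 without sham replicate 2 or injured replicate 2, and the lower count was 2 without sham replicate 1 or after quantile normalization.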

How the data were processed

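RNA from mouse spinal cord was measured on 12 Affymetrix arrays (4 groups of 3; the comparison described here uses the 6 polysome arrays). The deposited values are log2 expression values, 1 per probe set and array; the scale was read from their range of 5.26 to 14.65, and how the authors corrected background or normalized is not given in the sources used here. Arrays have no read depth, so their number limits the precision.

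Of 22690 probe sets, 20393 named 1 gene in the array annotation and 20364 of these matched the RefSeq gene table (GRCm38.p6). Probe sets above the array's 25th percentile on at least 3 arrays were kept, and the brightest probe set stood for each gene, which gave 10371 genes. limma 3.58.1 (R 4.3.3, statmod 1.5.0) fitted 4 group means to all 12 arrays with a trended spread (8 residual and 14.1 total degrees of freedom). P-values were two-sided and adjusted by the Benjamini-Hochberg method over all genes, with a threshold of 0.05. Each SE is limma's for groups of 3 arrays, from a spread pooled over all 12 arrays. The injured polysome arrays got the lowest limma array weights, 0.205, 0.471 and 0.894, and a low weight marks a noisy array. The pooled spread may therefore be too small for polysome changes. With such weights in the fit 3600 genes were called. On simulated data with 50 changed genes of each size, the polysome fit recovered 50% of changes of 0.25, 86% of 0.5 and 100% of 1, with 4% false calls. The simulation drew independent noise with the same spread of a gene in all groups, and no scaling differences between arrays. Its rates may therefore not hold for the real arrays.

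The genes described are, among called genes without overlap between groups, the 20 largest rises and falls, up to 4 called members of each of 66 lists with the lowest adjusted p, members of small lists, marker genes and Cpeb1 to Cpeb4. Cxcr2 and Mmp8 were named after their values were seen. Members and lists were chosen with earlier results of these data known, so list counts may partly reflect that choice. Alternatives changed the filter, the probe set, the scaling, the spread model, the replicate block and the arrays used.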

Additional observations from a re-analysis of the deposited data

Results flagged for a closer look

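Cpeb2, Cpeb3 and Cpeb4 are left out of the counts in this section. For 58 of 91 other genes described here, the injury change on polysomes differed from that in total RNA by the interaction test (limma adjusted p under 0.05). Among all 10371 genes the interaction was called for 50.2%, below 0 for 39.3% and above 0 for 11.0%. The value given is the polysome change minus the total RNA change on the log2 scale, from separate arrays of the same cords. It was below 0 for 56 genes and above 0 for 2. Many of the genes were picked for a low polysome change, which favours a value below 0. Among all 271 genes that the naming rule took, it was called for 163.

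Among the 91 genes, Per1 and Irs2 are those with more change on polysomes, at 0.38 and 1.52. Cpeb3, not counted among the 91, had a value of 0.58. Irs2 rose on polysomes and fell in total RNA.

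Genes that rose in both fractions, less so on polysomes, include inflammatory and reactive genes. For acute-phase and cytokine genes the values were -1.30 for Socs3, -1.07 for Osmr, -1.21 for Serpina3n, -1.31 for Cd14, -1.11 for Ccl9, -1.59 for Cxcl2 and -0.80 for Gbp2. For reactive glia and stress genes they were -0.35 for Gfap, -0.77 for Vim, -0.87 for Hspb1, -0.52 for Hmox1, -0.52 for Tubb6, -0.64 for Klf6 and -0.41 for Mcl1. For matrix genes they were -1.96 for Tfpi2 and -0.37 for Ccn1.

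Genes that fell on polysomes and were called higher in total RNA were 9: Cers2 (-1.15), Cpeb1 (-0.59), Eif3m (-1.24), Gspt1 (-1.08), Kcnip1 (-1.77), Kcnip4 (-1.32), Mal (-1.18), Pdia3 (-1.03) and Ssr4 (-1.48). With Irs2, 10 genes were called in opposite directions, and 44 were among all genes the rule took. Over all 10371 genes, 84 were called higher on polysomes and lower in total RNA, and 901 the reverse, whether or not the interaction was called.

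Genes that fell in both fractions, further on polysomes, were Aspa (-0.68), Col1a1 (-0.39), Fabp7 (-0.70), Get3 (-0.58), Gpr37 (-1.18), Pllp (-0.87), Serpinb1a (-0.77), Slc18a3 (-0.62), Tst (-0.42), Tubb4a (-0.48) and Ugt8a (-0.89).

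Genes that fell on polysomes and were not called in total RNA cover several cell types. Glial, myelin and sterol synthesis genes were Aqp4 (-1.15), Cldn10 (-1.10), Fa2h (-0.60), Mog (-0.64), Tspan2 (-0.87), Fdps (-1.14) and Nsdhl (-1.0). Lysozyme genes were Lyz1 (-1.39) and Lyz2 (-1.12). The others were B2m (-1.29), Bsg (-0.77), Csrp1 (-0.87), Efnb3 (-0.74), Laptm4a (-1.30), ND5 (-1.61), Pde6d (-1.02), Rabif (-1.29), Rtl8c (-0.96), Sccpdh (-1.07) and Tubb4b (-0.76).

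After quantile normalization of the 12 arrays 47 of the 58 interactions were called in the same direction. The exceptions were Aspa, Col1a1, Cpeb1, Fabp7, Get3, Gfap, Mcl1, Mog, Serpinb1a, Slc18a3 and Tst, and for Tst the sign turned, to 0.06. With arrays centred on their median 57 were called alike (all but Ccn1), and with centring on hybridization controls 57 (all but Per1).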

How the results depend on the processing

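Of the same 91 genes, 84 kept direction and call under all alternatives but hybridization-control centring, which was chosen after seeing the data. Leave-one-out with probe sets as first chosen and the checks within the quantile-normalized arrays were also chosen after seeing the data. The exceptions were Bcl2l1, Klf6, Mt1 and Ssr4, which lost the call with another choice of probe set, Cpeb1, Gfap and Msr1. Under that centring 85 were called alike, 5 lost the call (Arc, Efnb3, Fa2h, Gspt1 and Plxnb3) and Cpeb1 turned to 0.10. Gfap turned with the mean of its probe sets (-0.01), without probe sets ending in _s_at or _x_at (-0.43) and, as another probe set became the brightest, without injured replicate 1 (-0.33) or 3 (-0.48), against 0.45 at most when another array was left out. Msr1 turned to -0.03 when the brightest probe set was chosen over the polysome arrays.

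List counts of 1 or 2 genes moved by 1 gene in many of these settings. Polysome calls moved from 4053 to 6423 for each probe set on its own (4468 lower), 8243 with hybridization-control centring (8041 higher, 202 lower) and 70 with a minimum log2 change of 1 (42 higher, 28 lower). Higher calls were 2316 after quantile normalization of 12 arrays and 2487 after median centring, and lower calls 1576 after quantile normalization of 6. Interaction calls moved from 5208 to 8375 for each probe set (2245 higher, 6130 lower) and 133 with the minimum change (14 higher, 119 lower). Higher interactions were 438 with the array-median filter, 1838 with median centring and 199 with hybridization-control centring, and lower ones 1877 after quantile normalization of 12 arrays. In the 6 quantile-normalized arrays the minimum change left 68 (50 higher, 18 lower).

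Leaving out each polysome array gave 3200 to 4160 polysome calls (1088 to 1640 higher, 2109 to 2936 lower), 4635 to 5684 interactions (953 to 1181 higher, 3678 to 4513 lower) and 2258 to 3596 calls after quantile normalization of 6 (1204 to 1943 higher, 1054 to 1653 lower), the fewest without sham replicate 2.

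The labels do not say that equal replicate numbers mark the same animal. Deviations of equal-numbered sham and injured polysome arrays, which come from different mice, correlated at 0.08, -0.07 and -0.28. These values cannot tell whether equal-numbered polysome and total RNA arrays share animals, and a shared batch was not tested. With the replicate number as a fixed block in the 6 polysome arrays 2613 genes were called (820 higher). The same 6 arrays without a block gave 2997 (1036 higher). With operation and replicate number as a random block over the 12 arrays 4055 were called. Interactions could not be computed from the 6 polysome arrays alone. Genes and lists were not run with each probe set on its own or with the minimum change.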

Other observations

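Of 12 Krüppel-like transcription factors 6 were higher and 0 lower, with a median of 0.23; Klf13 rose by 0.71 (SE 0.08) and Klf15 by 0.61 (SE 0.08). Klf6 rose by 0.40 (SE 0.09), but its other probe sets gave -0.03 and 0.16. Of 26 genes of the Bcl2 and caspase families 7 were higher and 1 lower (26 and 0 with hybridization-control centring). Mcl1, which protects cells from apoptosis, rose by 0.60 (SE 0.07) and Birc2, an inhibitor of apoptosis, by 0.56 (SE 0.06). Bcl2l1, a relative of Mcl1, rose by 0.59 (SE 0.09), while its other probe sets gave -0.17 and -0.20, 1 of them called lower.

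Tubulins went both ways, with 4 of 12 higher and 6 lower (8 and 2 with hybridization-control centring). Tubb4a and Tubb4b changed by -0.79 (SE 0.05) and -0.65 (SE 0.06), against the rise of Tubb6, but the other probe sets of Tubb4b gave -0.06, 0.07 and 0.00. After quantile normalization 3 tubulins were lower. Of 53 axon guidance genes 4 were higher and 11 lower (44 and 0 with hybridization-control centring), with 2 higher without sham replicate 2 or 3 or injured replicate 1 or 2. Both shares are below those of all genes (13.7% and 25.3%), and the median of -0.05 is near the -0.04 of all genes. Efnb3, an ephrin, changed by -0.62 (SE 0.08) and Plxnb3, a semaphorin receptor, by -0.56 (SE 0.07).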
